A study of Mus musculus with 8 samples.

Results

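Neuropeptide genes with wide expression in the brain were followed in whole-brain bulk RNA-seq of mouse. They were Npy, Cck, Sst, Vip, Tac1, Tac2, Nts, Adcyap1, Crh and Cort, taken by gene symbol as 10 of the 24343 genes in the deposited table, without regard to their values. The animals were 3 mice of the inbred strain C57BL/6NCrl, 56 to 62 days of age, with no treatment, genotype difference or sex given in the labels and no control group. Mouse 1 and mouse 2 gave 3 libraries each and mouse 3 gave 2, so that 8 libraries were available. What the library numbers stand for (pieces of tissue, RNA aliquots or repeat preparations) was not stated. The deposited unit was FPKM, sequenced fragments scaled to transcript length and library size, which allows levels of different genes to be compared per length of transcript. In whole-brain RNA, fewer cells of a type and less RNA per cell cannot be told apart.

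Neuropeptides are made as long precursors that enter dense-core vesicles, where proteases cut them at paired basic residues and further enzymes trim and amidate the ends. The released peptides act mainly through G-protein-coupled receptors, more slowly and over longer distances than glutamate or GABA. In the forebrain, Npy, Sst, Vip, Cck, Tac1, Crh and Cort mark sets of GABAergic interneurons, while Cck and Adcyap1 are also made by excitatory neurons, Tac1 by striatal projection neurons, and Nts, Tac2 and Crh by neurons of the hypothalamus and extended amygdala.

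The 10 genes include 3 pairs whose peptides are alike, and the coding stretches below show how close each pair is. They were read from the GENCODE transcripts on GRCm38, 5′ to 3′ on the coding strand. Capitals mark, at matching positions, a stretch that the peptides of each pair share or nearly share. Somatostatin and cortistatin, both inhibitory peptides that bind the somatostatin receptors, are encoded near the end of their precursors, in exon 2 of 2 on the minus strand in both genes.
Sst, chr16:23889732-23889773: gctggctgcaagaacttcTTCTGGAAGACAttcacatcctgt
Cort, chr4:149125270-149125311: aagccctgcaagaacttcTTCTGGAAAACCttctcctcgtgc
The stretches of Sst and Cort matched at 31 of 42 bases (73.8%). The tachykinins end in a shared carboxy-terminal core, which is the part that activates their receptors. Tac1 encodes substance P in exon 3 of 7 and neurokinin A in exon 6 of 7, and Tac2 encodes neurokinin B in exon 5 of 7, all on the plus strand.
Tac1, substance P, chr6:7556732-7556764: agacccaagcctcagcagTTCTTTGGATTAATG
Tac1, neurokinin A, chr6:7559101-7559130: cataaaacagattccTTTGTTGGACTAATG
Tac2, neurokinin B, chr10:127729116-127729145: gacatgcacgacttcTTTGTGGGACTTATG
The residues encoded by the capitals of the tachykinins differ only at the second codon, where substance P has another residue than neurokinin A and neurokinin B. Base differences at the other codons leave the residue the same. Over the last 30 bases, the Tac2 stretch matched that of neurokinin A at 19 positions and that of substance P at 15. VIP and PACAP, the latter encoded by Adcyap1, belong to the glucagon and secretin family and share the receptors Vipr1 and Vipr2. Both stretches lie on the plus strand, in exon 5 of 7 of Vip and in exon 5 of 5 of Adcyap1.
Vip, chr10:5644024-5644107: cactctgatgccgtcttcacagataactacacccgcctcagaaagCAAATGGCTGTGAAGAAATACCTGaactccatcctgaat
Adcyap1, chr17:93203990-93204073: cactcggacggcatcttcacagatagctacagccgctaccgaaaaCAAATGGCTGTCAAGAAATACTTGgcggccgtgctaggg
These matched at 62 of 84 bases (73.8%).

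Depth ranged from 1.31 to 2.02 gigabases read on transcripts per library (median 1.76), lowest in library 1 of mouse 2. The sum of all FPKM values ranged from 295541 to 409889, and it was highest in both libraries of mouse 3 (384885 and 409889). All 10 neuropeptide transcripts were shorter than the median transcript of 2844 bases among the 13001 genes tested, with a median of 862.5 bases and a range from 498 (Cort) to 2092 (Adcyap1). The trend of level with transcript length differed between libraries. At the length of the 10 genes it ran at a median of 0.54 above the mean of the libraries in library 2 of mouse 3 and 0.26 above it in library 1 of mouse 3, against -0.40 in library 1 of mouse 2, on the log2(FPKM + 1) scale.

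Every one of the 10 genes was detected in every library, and their mean levels spanned 110-fold (plot of level by library). Cck, which encodes cholecystokinin, was highest at 198.2 FPKM ± 33.8 (SD of 3 mice), rank 252 of all genes. Sst followed at 162 ± 22.0 FPKM, rank 318, and Npy, which encodes the inhibitory and appetite-promoting neuropeptide Y, at 78.1 ± 7.35 FPKM, rank 762. These 3 genes held 86.4% of the summed FPKM of the 10. Together the 10 genes made up 0.106% to 0.161% of all FPKM in a library.

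**Figure D1:**
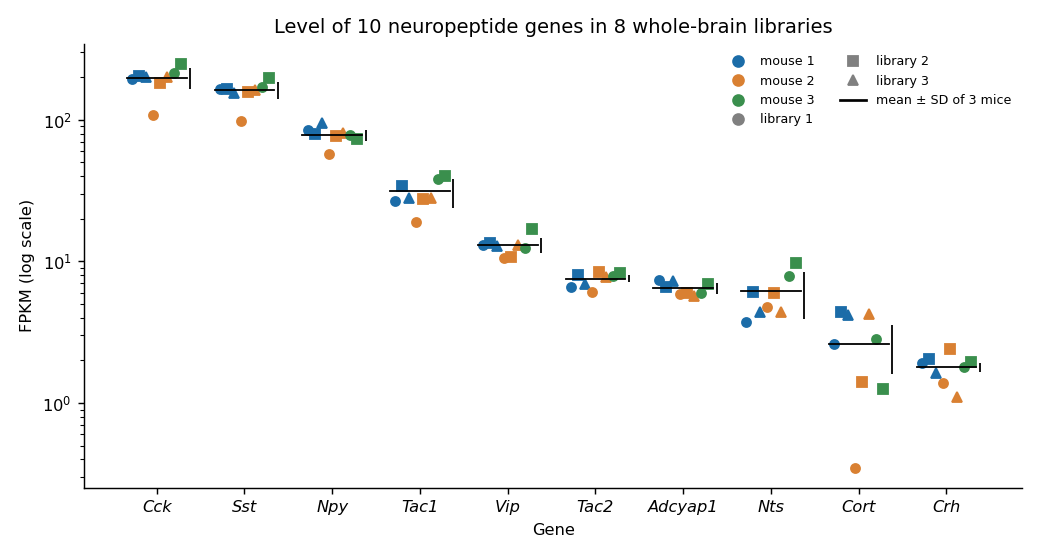
FPKM (log scale) of the 10 neuropeptide genes in each of the 8 libraries, ordered by mean level. Points are libraries, coloured by mouse and shaped by library number, horizontal lines are means of 3 mice and vertical lines ± SD of the mice. Means fall from 198.2 FPKM for Cck to 1.80 for Crh, and library 1 of mouse 2 lies low for Cck, Sst, Npy, Tac1 and Cort.

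Tac1 had a mean level of 31.2 ± 7.23 FPKM and Vip one of 13.1 ± 1.60 FPKM. Tac2 (7.57 ± 0.460 FPKM), Adcyap1 (6.46 ± 0.614 FPKM) and Nts, which encodes neurotensin (6.196 ± 2.26 FPKM), lay close together. Cort had 2.59 ± 0.989 FPKM. Crh, which encodes corticotropin-releasing hormone, the trigger of the pituitary stress response, was lowest at 1.80 ± 0.137 FPKM, rank 11855.

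Neighbours in this order were compared within libraries, since with 3 mice an exact sign test cannot give a two-sided p below 0.25. The gene with the higher mean was also higher in 8 of 8 libraries for 6 of the 9 neighbouring pairs. The ranges over libraries did not overlap for 4 of them, which were Sst over Npy, Npy over Tac1, Tac1 over Vip and Vip over Tac2. Cck exceeded Sst in every library by 1.104-fold to 1.29-fold although the ranges overlapped, from 109 to 247 FPKM for Cck and from 98.8 to 196 FPKM for Sst. Tac2 exceeded Adcyap1 in 6 of 8 libraries, Adcyap1 exceeded Nts in 5 of 8 and Cort exceeded Crh in 5 of 8, so that the order of these neighbours was not resolved beyond their spread. Nts exceeded Cort in 8 of 8 libraries, by 1.03-fold at the least.

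Nearly all signal came from 1 transcript per gene. Cck and Tac2 were the only members with a second RefSeq transcript. The second transcript of Cck (NM_001284508) held 0.244% of the gene's FPKM, and that of Tac2 (NM_001199971) held 0.452%, reaching 0.01 FPKM in 1 library only. On the mouse genome (GRCm38.p6, RefSeq), the 10 genes are spread over several chromosomes. Npy and Tac1 share chromosome 6 (49822710 to 49829507 and 7555061 to 7562978), and Vip, Tac2 and Nts share chromosome 10 (5639193 to 5647617, 127724478 to 127731768 and 102481756 to 102490418). Cck lies on chromosome 9 (121489824 to 121495694), Sst on chromosome 16 (23889573 to 23891342), Adcyap1 on chromosome 17 (93198245 to 93206541), Crh on chromosome 3 (19693401 to 19695396) and Cort on chromosome 4 (149125034 to 149126763).

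The deposited confidence bounds carry the number of fragments behind a value, because the squared ratio of FPKM to its half-width (taken as 2 SD) gave whole numbers within 0.02 for 79.3% of 19004 values of up to 10 fragments in genes with a single transcript. The share was 44.8% between 10 and 30 fragments and 6.12% between 30 and 100, so larger numbers are estimates. Sst rested on 396 to 1052 fragments per library and Cck on 438 to 966, Npy on 191 to 496, Tac1 on 170 to 467, Vip on 155 to 316 and Adcyap1 on 124 to 222. Nts rested on 47 to 135 fragments, Tac2 on 29 to 51, Crh on 17 to 35 and Cort on 1 to 19. The spread between libraries was 5.61 times the counting error for Cck, 4.76 times for Sst, 4.02 times for Tac1 and 2.90 times for Nts (plot of library spread against counting error). It was 1.32 times for Adcyap1, 1.24 for Cort, 1.16 for Crh and 0.751 for Tac2, so that in these 4 genes the libraries differed by little more than counting allows, or by less.

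**Figure D2:**
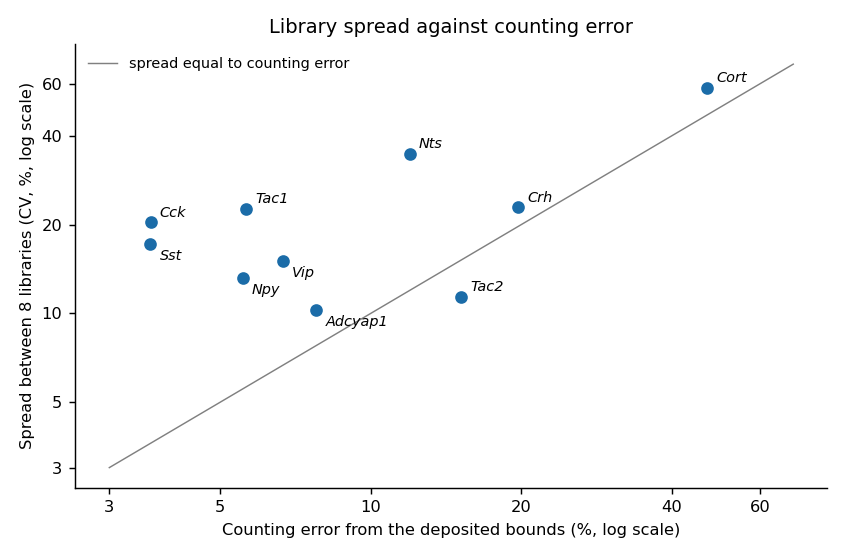
Coefficient of variation of FPKM over the 8 libraries (vertical, %, log scale) against the relative counting error computed from the deposited confidence bounds (horizontal, %, log scale), 1 point per gene, with the line of equality. Cck, Sst, Tac1 and Nts lie far above the line, Adcyap1, Crh and Cort lie near it and Tac2 lies below it.

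The only comparison between samples that the labels allow is between the 3 mice, with their libraries as replicates. It describes these animals, not a condition. Nts was the 1 neuropeptide gene of the 10 that differed between the mice (limma moderated F-test on log2(FPKM + 1), Benjamini-Hochberg adjusted p = 0.0305), beside 25.5% of the 13001 genes tested (3310 genes). The share among the neuropeptide genes was thus not above that of all genes. Without adjustment, Nts, Tac1 and Adcyap1 had p under 0.05. The median range of the mouse means was 0.37 on the log2(FPKM + 1) scale for the 10 genes and 0.28 for all genes tested, and the coefficient of variation of the mouse means had a median of 12.9% and 12.3%.

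Nts had 3.73, 6.05 and 4.43 FPKM in the libraries of mouse 1, 4.77, 6.03 and 4.38 FPKM in those of mouse 2, and 7.84 and 9.75 FPKM in those of mouse 3. Both libraries of mouse 3 were above the other 6. On the log2(FPKM + 1) scale, mouse 3 exceeded mouse 1 by 0.79 (SE 0.18) and mouse 2 by 0.70 (SE 0.18). The deposited confidence bounds did not overlap in 10 of the 12 pairs of a mouse 3 library with another library. The call depended on single libraries: the adjusted p was 0.0669 without library 3 of mouse 1, 0.0552 without library 1 of mouse 3 and 0.251 without library 2 of mouse 3, and 126 genes in all were called in the last case. It was 0.0703 on TPM values (transcript abundance, FPKM rescaled to a fixed total per library) and 0.147 with the length trend of each library removed.

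Tac1 had 26.8, 34.1 and 27.9 FPKM in mouse 1, 19.1, 27.7 and 28.03 FPKM in mouse 2 and 38.2 and 40.1 FPKM in mouse 3. Mouse 3 was again above the other 6 libraries, by 0.52 on the log2(FPKM + 1) scale over the mean of mice 1 and 2 (SE 0.15), with an adjusted p of 0.0557 in the limma test. This p was 0.0362 without library 1 of mouse 2. Cck and Sst were likewise higher in both libraries of mouse 3 than in any other library. Cck had 193, 203 and 201.5 FPKM in mouse 1, 109, 181 and 202.0 FPKM in mouse 2 and 215 and 247 FPKM in mouse 3 (limma adjusted p = 0.196). Sst had 165, 166 and 156 FPKM in mouse 1, 98.8, 158 and 163 FPKM in mouse 2 and 172 and 196 FPKM in mouse 3 (limma adjusted p = 0.254). In both genes library 1 of mouse 2 stood far below the others, including those of its own mouse. Both libraries of mouse 3 lay above the other 6 for these 4 of the 10 genes, beside 26.5% of all genes tested, and below them for 0 of the 10, beside 21.7%.

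**Figure D3:**
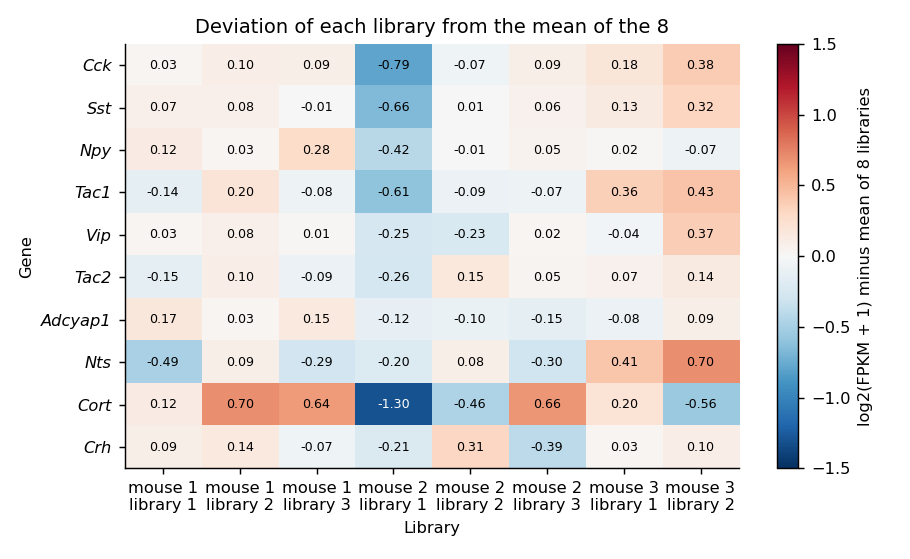
Deviation of each library (columns, grouped by mouse) from the mean of the 8 libraries on the log2(FPKM + 1) scale for each of the 10 genes (rows), red above and blue below the mean. Library 1 of mouse 2 is below the mean for all 10 genes, down to -1.30 for Cort, and library 2 of mouse 3 is highest for Nts at 0.70.

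Npy, Vip, Adcyap1, Tac2 and Crh did not pass the limma test either. Npy had mouse means of 86.1, 71.7 and 76.3 FPKM in mice 1, 2 and 3 (adjusted p = 0.283), with the highest library at 94.3 FPKM in mouse 1. Vip had means of 13.2, 11.5 and 14.6 FPKM (adjusted p = 0.202), and its highest value, 16.9 FPKM, came from library 2 of mouse 3. Without library 1 of mouse 3 the adjusted p for Vip was 0.0438. Adcyap1 had means of 7.07, 5.84 and 6.47 FPKM (adjusted p = 0.118). Tac2 had means of 7.21, 7.41 and 8.09 FPKM (adjusted p = 0.636) and Crh means of 1.87, 1.64 and 1.88 FPKM (adjusted p = 0.688). All 3 libraries of mouse 2 were below the other 5 for Adcyap1 (5.72 to 5.96 FPKM against 6.02 to 7.39 FPKM), and for Npy those of mouse 1 were above those of mouse 3. The ranges of the mice overlapped for Vip, Tac2 and Crh.

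Cort varied more than any other of the 10 genes. Its libraries had 2.62, 4.41 and 4.18 FPKM in mouse 1, 0.350, 1.41 and 4.26 FPKM in mouse 2 and 2.82 and 1.26 FPKM in mouse 3, values that rest on 9, 17 and 19, then 1, 5 and 17, then 11 and 5 fragments. Libraries of the same mouse thus differed by as much as libraries of different mice (limma adjusted p = 0.306). Without library 3 of mouse 2 the adjusted p was 0.0417.

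Mouse 2 had the lowest mean of the 3 mice for 8 of the 10 genes, as it did for 40.4% of all genes tested, and mouse 3 the highest mean for 7, as for 47.1%. Library 1 of mouse 2 held the lowest value of 7 of the 10 genes, beside 36.8% of all genes tested, and the sum of the 10 genes was 313.6 FPKM there and 478 to 603 FPKM in the other 7 libraries. Library 2 of mouse 3 held the highest value of 5 of them, beside 33.4% of all genes.

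The scaling of the libraries, or removal of their length trend, decided the direction for several of the 10 genes (plot of mouse 3 against mice 1 and 2). The median of all genes was 0.02 higher in mouse 3 than in the mean of mice 1 and 2 on log2(FPKM + 1), and -0.26 on the same scale of TPM, since the FPKM totals of mouse 3 were larger. Nts was higher in mouse 3 by 0.74 (SE 0.16) in FPKM, 0.53 in TPM and 0.38 with the length trend removed, and Tac1 by 0.52, 0.24 and 0.09. Cck was higher by 0.38 in FPKM and 0.08 in TPM but differed by -0.26 with the length trend removed, and Sst by 0.30, 0.00 and -0.40. Npy differed by -0.03 in FPKM, -0.33 in TPM and -0.78 with the length trend removed. Cort, the shortest transcript, differed by -0.24, -0.48 and -1.03. Vip, Tac2, Adcyap1 and Crh turned from above 0 in FPKM to below 0 in TPM. In the same order of settings, Vip differed by 0.22, -0.06 and -0.01 and Tac2 by 0.14, -0.14 and -0.50. Adcyap1 differed by 0.005, -0.28 and -0.10 and Crh by 0.08, -0.13 and -0.22.

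**Figure D4:**
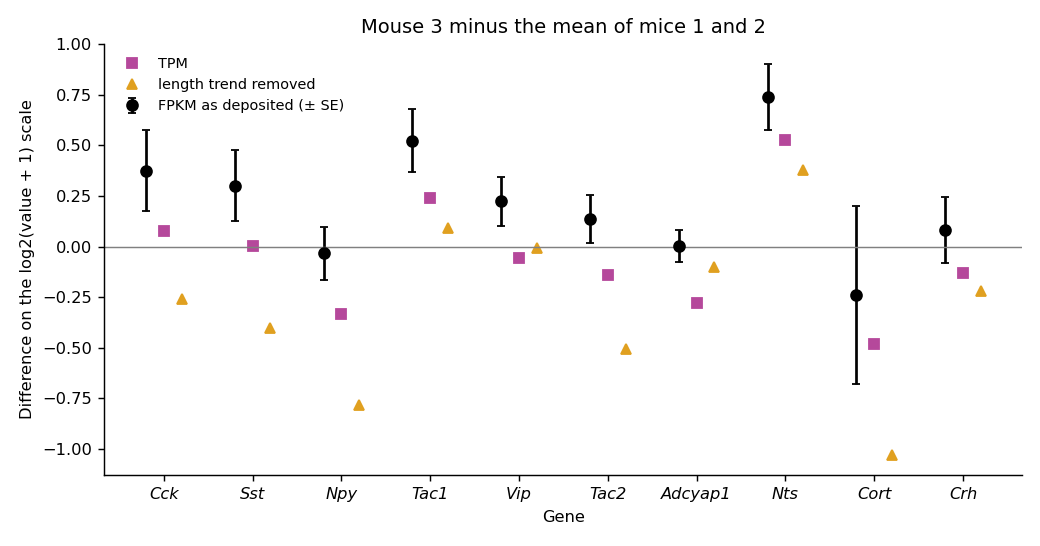
Difference of mouse 3 from the mean of mice 1 and 2 on the log2(value + 1) scale for each gene, from FPKM as deposited (circles, ± SE), from TPM (squares) and with the length trend of each library removed (triangles). Nts and Tac1 are above 0 in all 3, whereas Cck and Sst are above 0 in FPKM and below 0 with the length trend removed.

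Some marker genes of cell types and regions also differed between the mice in the limma test on FPKM as deposited, beside 25.5% of all genes tested. The 3 oligodendrocyte markers summed to 1933, 1969 and 4041 FPKM in mice 1, 2 and 3 (2 of 3 genes passed the limma test, both higher in mouse 3), and the 3 astrocyte markers to 255, 261 and 403 FPKM (3 of 3, all higher). The 6 neuronal markers summed to 1906, 1808 and 1547 FPKM (4 of 6, all lower in mouse 3). The 5 cortical markers summed to 45.6, 43.1 and 30.9 FPKM (3 of 5, all lower) and the 4 striatal markers to 72.0, 69.3 and 56.9 FPKM (0 of 4 by limma, 1 with unadjusted p under 0.05). The 5 hypothalamic markers summed to 37.2, 32.1 and 52.2 FPKM, and of the 4 tested 1 was called (Pmch, higher in mouse 3). The cerebellar markers summed to 170, 161 and 229 FPKM (0 of 4 by limma, 1 with unadjusted p under 0.05). The part of these marker differences, and of the transcript length trend, in the higher Nts and Tac1 levels of mouse 3 was not tested.

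The 6 genes listed for cortical interneurons, a cell class that makes several of these peptides, summed to 342, 320 and 359 FPKM. Pvalb (mean 129 FPKM) and Gad1 (114 FPKM) were the highest of them. Gad1 and Gad2 are also among the neuronal markers above, so the sum is not particular to cortical interneurons. Pvalb and Sncg were higher and Gad1 and Gad2 lower in mouse 3. Lamp5 and Lhx6 did not pass the limma test (adjusted p = 0.508 for each). Microglial markers summed to 41.8, 41.0 and 44.8 FPKM (1 of 3 called, Cx3cr1, higher in mouse 3). Choroid plexus markers summed to 534, 431 and 500.3 FPKM (1 of 5, Kl, lower). Blood markers summed to 618, 612 and 849 FPKM (1 of 5, Hbb-bt, higher). These counts stand beside 25.5% of all genes tested. Pituitary markers summed to 2.41, 2.60 and 2.30 FPKM, with Prl, Gh, Cga and Lhb listed at 0 in at least 1 library, and 0 of the 1 gene tested (Pomc) was called by limma (adjusted p = 0.117, with 1 of 1 under 0.05 before adjustment).

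Ratios within a library do not depend on how that library was scaled, so the 3 pairs of related peptides were compared in this way (plot of the 3 ratios). The ratio of Tac1 to Tac2 differed between the mice, with Tac2 at only 29 to 51 fragments per library (counting error 15.2%). It was 4.04, 4.23 and 4.01 in the libraries of mouse 1, 3.15, 3.29 and 3.62 in those of mouse 2 and 4.85 and 4.82 in those of mouse 3, so that the ranges of the 3 mice did not overlap. An exact permutation test, which enumerated 280 ways to group the libraries, gave p = 0.00357, the smallest it allows, and 0.0107 after adjustment over the 3 pairs. The adjusted p was 0.0107 also with the length trend removed. It was 0.0571 without library 2 of mouse 1, where fewer groupings raise the smallest p the permutation test allows.

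The ratio of Sst to Cort averaged 44.5, 107 and 97.5 in mice 1, 2 and 3 and ranged from 37.3 to 282 over libraries, the highest where Cort rested on 1 fragment (exact permutation test, p = 0.364, adjusted p = 0.364). The ratio of Vip to Adcyap1 was the steadiest of the 3, with means of 1.86, 1.95 and 2.24 and a range over libraries from 1.77 to 2.44 (exact permutation test, p = 0.243, adjusted p = 0.364). The ranges of all mice overlapped for Sst to Cort. For Vip to Adcyap1, mouse 3 (2.064 at the least) lay just above mouse 1 (2.056 at the most), and mouse 2 overlapped both. In every library Sst exceeded Cort, Tac1 exceeded Tac2 and Vip exceeded Adcyap1.

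**Figure D5:**
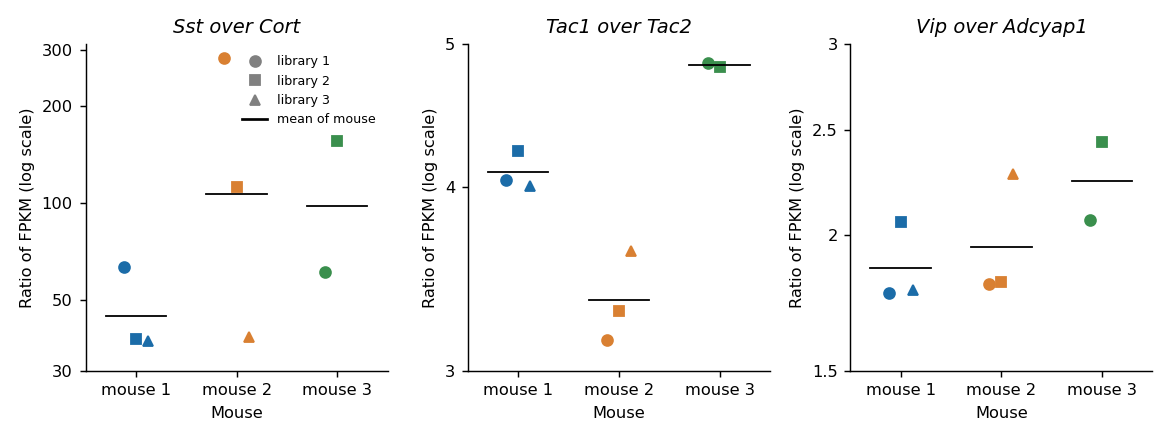
Ratio of FPKM within each library (log scale) for Sst over Cort, Tac1 over Tac2 and Vip over Adcyap1, by mouse. Points are libraries and lines the mean of each mouse on the log scale. The 3 mice do not overlap for Tac1 over Tac2 (mouse means 4.09, 3.35 and 4.84) whereas mouse 2 overlaps both other mice for the other pairs.

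The receptors of these peptides were lower than the peptides in some systems and higher in others. Of 22 receptor genes, 17 reached a mean of 1 FPKM and were tested, and mean levels ran from 0.0113 FPKM for Npy4r to 61.8 FPKM for Ntsr2. Sst had 30.0 times the level of its highest receptor, Sstr1 (5.41 ± 0.457 FPKM), Cck 22.9 times that of Cckbr (8.66 ± 0.581), Tac1 22.2 times that of Tacr1 (1.41 ± 0.138) and Npy 14.2 times that of Npy1r (5.49 ± 0.616). Vip had 5.87 times the level of Vipr1 and Tac2 5.26 times that of Tacr3. Each of these 6 peptide genes exceeded its highest receptor in 8 of 8 libraries.

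The remaining 3 were below their highest receptor in 8 of 8 libraries. Crh had 0.257 times the level of Crhr1 (6.998 ± 0.389 FPKM), Adcyap1 0.223 times that of Adcyap1r1, the PACAP-specific receptor (29.0 ± 2.17 FPKM), and Nts 0.1003 times that of Ntsr2 (61.8 ± 20.5 FPKM). Cort has no receptor of its own in this list. Crhbp, which encodes a secreted protein that binds corticotropin-releasing hormone, had 4.35 ± 0.501 FPKM, above Crh itself, and did not pass the limma test (adjusted p = 0.189).

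Of the 17 receptor genes tested, 3 differed between the mice in the limma test, beside 25.5% of all genes. The median difference of mouse 3 from the mean of mice 1 and 2 over the 17 receptor genes tested was -0.16 on log2(FPKM + 1), beside 0.02 for all genes tested. On FPKM as deposited, Ntsr2 was higher in mouse 3 (limma adjusted p = 0.0208), by 0.77 over the mean of the other mice on log2(FPKM + 1). Sort1, which encodes sortilin, a sorting receptor that also binds neurotensin, was lower in mouse 3 by 0.41 (adjusted p = 0.0263), and Vipr1 was lower by 0.37 (adjusted p = 0.0376). Among the 3 neurotensin-binding genes, Ntsr1 had an adjusted p of 0.177. Ntsr2 is known as an astrocyte-enriched gene, and the astrocyte markers were higher in the same mouse. The part of that difference in the Ntsr2 level was not tested.

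The enzymes and chaperones that process the precursors ranged widely in level. All 7 were tested, from 7.34 FPKM for Qpct, which forms the amino-terminal pyroglutamate of neurotensin, to 916 FPKM for Cpe, which trims basic residues after cleavage. In the limma test on FPKM as deposited, 4 differed between the mice, beside 25.5% of all genes. Cpe (adjusted p = 0.0203), Scg5, the chaperone of the convertase PC2 (adjusted p = 0.0257), and Qpct (adjusted p = 0.0240) were higher in mouse 3, and Pcsk2, which encodes PC2, was lower (adjusted p = 0.00629). The median difference of mouse 3 over the 7 genes was 0.45, beside 0.02 for all genes tested. Pcsk1, Pcsk1n and Pam did not pass the test (adjusted p = 0.704, 0.160 and 0.480).

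Promoter windows of 300 bases around the start were found in RefSeq (GRCm38.p6) for 9 of the 10 genes, as 10 windows, all but Crh. The cyclic AMP response element TGACGTCA, the site bound by CREB, was searched on both strands and was found in 1 of these, that of Sst, 48 to 41 bases before the start of its transcript NM_009215 (position 23890844), and in 1.79% of 32851 windows of all genes. The RefSeq span of Sst given above reaches farther upstream than this start, so that the element lies within the span. The stretch around it, on the minus strand, is shown because no other of these windows held the full element, which is in capitals.
Sst, chr16:23890865-23890912: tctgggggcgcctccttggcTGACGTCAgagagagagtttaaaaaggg
The half-site TGACG, which the full element contains, was present in 8 of the 10 windows, those of Cck, Sst, Vip, Tac1, Nts, Adcyap1 and Cort, beside 20.8% of all windows. TATAAA was present in 2, those of Vip and Adcyap1, beside 13.6%. These are matches of letters and were not compared with the levels.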

How the data were processed

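Whole-brain RNA with an integrity score over 8 (RNAqueous Micro kit) was made into Kapa mRNA HyperPrep libraries for a NextSeq500. The submitters' processing notes name TopHat, Cufflinks and mm10, without versions. The authors deposited FPKM values with bounds, the coverage signal per base and the length of 34535 RefSeq transcripts; transcripts were summed per gene. Strand setting, read length and counts were not given in the sources used here.

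Means were taken per mouse, then over mice (SD, n = 3). Mice were compared with limma 3.58.1 (R 4.3.3), a moderated F-test on log2(FPKM + 1) over the 13001 genes whose mean reached 1 FPKM, with Benjamini-Hochberg adjusted p under 0.05 as the call. This scale understates changes of low genes. Libraries of a mouse may be technical replicates, so p-values measure only their spread. In simulated data of 13001 genes, 170 of 200 genes changed by 1 (log2) were recovered with 12 false calls, and 1 of 200 changed by 0.5. Only those 200 genes changed there, so the adjusted threshold was stricter than in the data, where 3310 genes were called. Differences under 0.5 were called in the data, such as Cpe by 0.45 in mouse 3. Ratios were tested by exact permutation. Fragment numbers cover counting error only. All 10 genes were named, and of each list the called genes (up to 5), the highest and the lowest. The 10 genes were taken by symbol and not by value, but earlier results of these data were known when genes and lists were chosen. Alternatives were another pseudocount, other filters, TPM, quantile normalization, removal of each library's length trend, the highest transcript, a replicate block and leaving out each library.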

Additional observations from a re-analysis of the deposited data

Results flagged for a closer look

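Among 14 measures of the 10 genes and their ratios, 3 had a library whose distance from the nearest other library was a larger part of the whole range over 8 libraries than Dixon's limit of 0.526, which chance passes about 1 in 20 times for each measure. Sst was at 98.8 FPKM in library 1 of mouse 2, with the nearest library at 156 FPKM. The summed level of the 10 genes was 313.6 FPKM in the same library, with the nearest at 478 FPKM. Vip was at 16.9 FPKM in library 2 of mouse 3, with the nearest at 13.5 FPKM. Library 1 of mouse 2 also had the fewest bases read on transcripts, and its part in the low Sst level was not tested.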

How the results depend on the processing

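The number of the 10 genes that differed between the mice (limma, adjusted p) was 1 under another pseudocount, quantile normalization and the highest transcript, 0 with no filter on low values (3 with unadjusted p under 0.05), and 2 where the minimum mean was 5 FPKM (Tac1 and Nts). It was 2 on TPM (Npy and Adcyap1), where 5493 genes were called in all, and 3 with the length trend removed (Npy, Sst and Tac2). Adcyap1 was called on TPM (adjusted p = 0.0309), where its mouse 3 difference went from 0.00 to -0.28 (log2), much as the median of all genes went from 0.02 to -0.26. Direction and call turned for Sst and Tac2 with the length trend removed (limma adjusted p = 0.0380 and 0.0117). Cort was called without library 3 of mouse 2 (limma adjusted p = 0.0417), where its mouse 3 difference went from -0.24 to 0.02, near 0. The limma adjusted p for Npy was 0.0435 on TPM and 0.0103 with the length trend removed. Beside the scaling itself, the cause was not tested. For the receptor, processing and marker genes, calls are given from FPKM as deposited only, and not under these settings.

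With 1 library left out, 0 to 2 of the 10 genes and 126 to 3873 of all genes were called. The count was 0 without library 3 of mouse 1 (2 with unadjusted p under 0.05) and 0 without library 2 of mouse 3 (1 with unadjusted p under 0.05). Where mouse 3 was left with 1 library, that library was assumed to vary like the others. The adjusted p for the Tac1 to Tac2 ratio (exact permutation test) ranged from 0.0286 to 0.0571, that for Sst to Cort from 0.191 to 0.581 and that for Vip to Adcyap1 from 0.191 to 0.714. With 1 library fewer the permutation test has fewer groupings, so its smallest possible p is higher than with 8 libraries. The 0.0286 for Tac1 to Tac2 was the smallest adjusted p then possible. For Cort the limma adjusted p ranged from 0.0417 to 0.529. Correlations of same-numbered libraries of different mice were weak, from 0.00276 to 0.107 and all above 0. Not every library correlated best with its own number. The 2 libraries of mouse 3 mirror each other around their mean, so some of these values are not independent. Whether library numbers pair the mice was thus not settled. A replicate block gave 2 of the 10 genes, Tac1 and Nts, and 2995 genes in all. Without scaling to transcript length, Adcyap1 ranked above Nts (8 of 8 libraries), Nts above Tac2 (6 of 8) and Crh above Cort (7 of 8), Npy exceeded Tac1 in 7 of 8, and the ranges of Npy and Tac1 and of Tac1 and Vip overlapped. Depth limits Cort and Crh most, at 84 and 219 fragments over all libraries.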
